A study of Homo sapiens and Mus musculus with 56 samples.

Results

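The 8 genes described here are retinoid genes, measured in 5 leukaemia cell models: the retinal dehydrogenases ALDH1A1, ALDH1A2 and ALDH1A3, the retinal reductase DHRS3, the retinoic acid receptors RARA, RARB and RARG, and the partner receptor RXRA. They were chosen by name from the known pathway and grouped around ALDH1A3 with treatment-minus-DMSO values of these same arrays in view, so their levels and differences are given as a description, with no test. All 8 genes were found, on 21 of 54675 human probe sets and 13 of 45101 mouse probe sets. RS4;11 and SEM are human B-precursor leukaemia lines with a KMT2A-AFF1 fusion, REH has the same B-precursor origin but no KMT2A fusion, MOLM-13 comes from a human myeloid leukaemia that carries KMT2A-MLLT3, and the mouse cells were transformed with MLL-AF9 and grown in IL-6, IL-3 and SCF. Cells received DMSO, the DOT1L inhibitor EPZ004777, the menin inhibitor MI-2-2, or both. RS4;11, SEM and REH were given 3 µM EPZ004777, 10 µM MI-2-2 or the combination for 6 days. The exposure of MOLM-13 and of the mouse cells lasted 4 days, at 3 µM per compound. The labels do not give the combination's doses apart, and they were taken to equal the single ones. Each of the 20 groups had 3 arrays, except RS4;11 DMSO and the SEM groups for DMSO, MI-2-2 and the combination, which had 2. The submitters describe the replicates as biological, without saying which cultures they came from.

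Retinoic acid is made from retinol (vitamin A) by 2 oxidations, first to retinal by retinol dehydrogenases and then to retinoic acid by the ALDH1A enzymes. DHRS3 works against the first step by reducing retinal to retinol, and it is a known target of retinoic acid itself. Retinoic acid binds the RAR receptors, which sit on DNA as heterodimers with RXR at paired half-sites. The pathway is known in myeloid leukaemia for the differentiation that retinoic acid sets off, and ALDH activity is widely used as a mark of immature blood cells.

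The values are log2 signals of probe sets, and a difference is the treated mean minus the DMSO mean on that scale, ± the standard error (SE) of the model fit. The level of a probe set is also given as its percentile among all probe sets of the same array. MOLM-13 arrays had medians of 6.18 to 6.25 and the other human arrays of 5.54 to 5.66, so log2 levels were not set against each other between MOLM-13 and the other lines. The 7 B-precursor markers read were all above the filter in RS4;11 and SEM and 6 of 7 in REH, where VPREB1 was below it, and the 7 myeloid markers read were all above it in MOLM-13 and the mouse cells. Markers of the other lineage were not all below the filter: 4 of 7 myeloid markers (MPO, CSF1R, CTSG and LYZ) passed it in each of RS4;11, SEM and REH, and 4 of 7 B-precursor markers did in each myeloid model. The B-precursor log2 mean was 5.61 to 5.88 in MOLM-13 and 5.43 to 6.11 in the mouse cells, and the myeloid mean was at most 5.87 in RS4;11, SEM and REH. Of 5 T cell markers 0 to 2 passed the filter in a model, of 3 erythroid and megakaryocyte markers read 1 to 3, and of 5 stroma and epithelium markers 1 to 3. Some arrays stood apart. In SEM the actin 3' minus 5' signal, which rises as RNA breaks down, spanned 1.83 to 1.93 with MI-2-2 or the combination and 2.32 to 2.48 on the remaining arrays. On the REH DMSO arrays it was 3.11, 2.75 and 3.65 against at most 2.87 on the treated ones, and on the mouse combination arrays 0.48, 1.12 and 1.99 against at most 0.63 on the others. Some of the results that touch these arrays, not all, are also given with them left out or with this signal in the model. Without REH DMSO replicates 1 and 3, or mouse combination replicates 2 and 3, a single array is left in that group. Such values have no replicate. The myeloid marker mean moved with treatment as well: its log2 mean was 11.53 to 11.62 on MOLM-13 DMSO arrays, 12.43 to 12.45 with EPZ004777, 11.94 to 12.14 with MI-2-2 and 12.68 to 12.72 with the combination, and in the mouse cells it was 10.16 to 11.43 with DMSO and 12.65 to 13.01 with the combination. In SEM the myeloid mean was 4.51 to 4.56 with DMSO, 4.59 to 4.67 with EPZ004777, 5.26 to 5.32 with MI-2-2 and 5.63 to 5.82 with the combination, and the stroma and epithelium mean was 4.02 to 4.18, 4.71 to 4.80, 4.91 to 5.20 and 5.22 to 5.44 in the same order. Stroma and epithelium markers of the mouse cells went from 4.96 to 5.20 with DMSO to 6.11 to 6.17 with the combination, and erythroid and megakaryocyte markers from 6.96 to 7.07 to 7.77 to 8.39. The part of these markers in the differences below was not tested, and a smaller share of one kind of cell cannot be told apart from less RNA per cell in such bulk samples.

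ALDH1A3, which oxidises retinal to retinoic acid, was bright only in MOLM-13 among the 4 human lines. Its probe set 203180_at lay at percentile 87.9 to 91.2 of the MOLM-13 DMSO arrays. In RS4;11, SEM and REH it lay between percentile 2.64 and 22.0 on all 32 arrays, treated or not, which is below the filter used for the tests. In these lines the gene was therefore not detectable above array background, and the order of the lines below MOLM-13 is not resolved. In the mouse cells, the ALDH1A3 ortholog lay near the middle of the DMSO arrays, at percentile 47.9 to 52.1 of probe set 1427395_a_at.

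In MOLM-13 the ALDH1A3 signal was lower with each treatment. The DMSO arrays read 11.24, 11.41 and 10.89. With EPZ004777 the arrays read 7.85, 8.30 and 8.06. With MI-2-2 they read 6.38, 6.13 and 6.44, and with the combination 5.40, 5.10 and 5.63. The 4 groups did not overlap anywhere: every EPZ004777 array was below every DMSO array, every MI-2-2 array below every EPZ004777 array, and every combination array below all others. The ALDH1A3 difference from DMSO was -3.11 ± 0.17 with EPZ004777, -4.86 ± 0.17 for MI-2-2 and -5.81 ± 0.17 for both compounds. The first 2 correspond to signals 8.62-fold and 29.1-fold lower. The 3 differences share the same DMSO arrays. With the combination, ALDH1A3 lay at percentile 34.3 to 41.8 of the array, and 2 of its 3 arrays were under the filter, where array background adds to the signal, so no fold is given for it. The dimmer ALDH1A3 probe set, 1558649_at, read 5.32 to 5.49 on DMSO arrays and 4.86 to 5.18 on the 9 treated arrays, so that all treated arrays were below DMSO there too. Its differences were -0.38 ± 0.10, -0.34 ± 0.10 and -0.40 ± 0.10 in the same order of treatments. Averaging both ALDH1A3 probe sets gave -1.74, -2.60 and -3.10. No fall of the MOLM-13 size was seen in the mouse cells, given the same doses for the same time. There 1427395_a_at differed from DMSO by -0.22 for EPZ004777, -0.27 for MI-2-2 and -0.21 for both compounds (± 0.13 each). The dimmer mouse probe set 1417642_at had a mean of 5.63 with DMSO and treated means of 5.45 to 5.72. The mean of 1448789_at was 3.42 with DMSO and 3.00 to 3.14 under treatment, below the filter throughout.

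**Figure D1:**
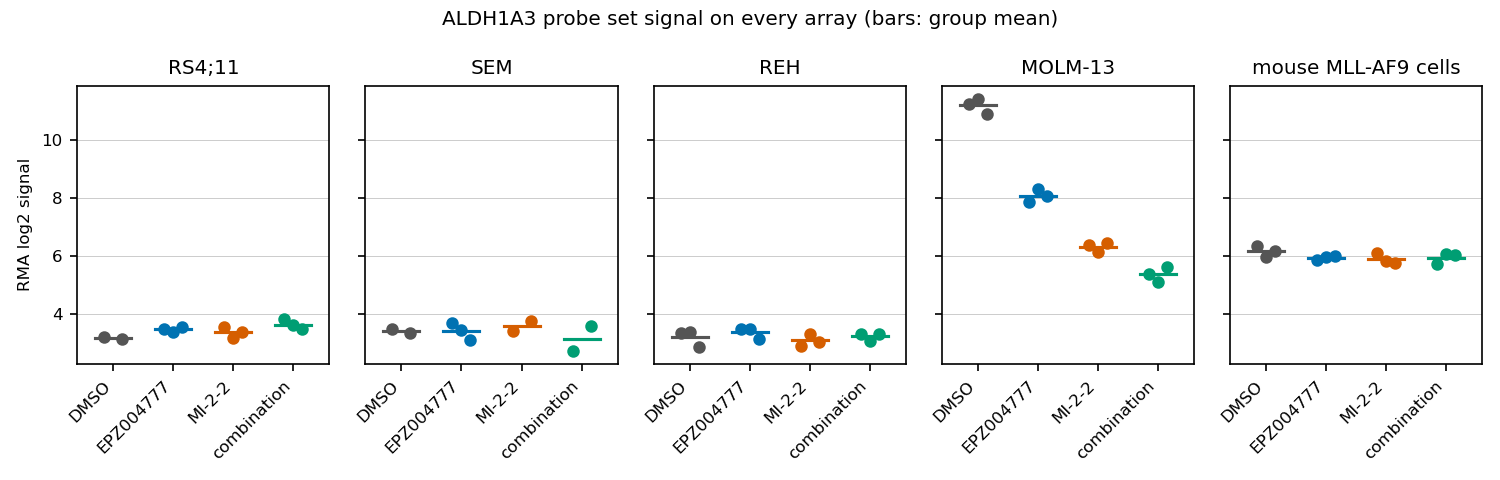
RMA log2 signal of the ALDH1A3 probe set (203180_at on human, 1427395_a_at on mouse arrays) on every array, by cell model and treatment, with a bar at the group mean. In MOLM-13 the signal goes from 10.89 to 11.41 with DMSO to 5.10 to 5.63 with the combination without overlap of any groups, and in RS4;11, SEM and REH all arrays lie at or below 3.82. The signal scale differs between MOLM-13 and the other human lines, so levels are not compared between these panels.

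The promoter window of ALDH1A3 was compared with those of ALDH1A1 and DHRS3, the members that followed it in the size of their largest difference in the human lines. Each window runs from 250 bases before to 50 after the RefSeq transcript start on GRCh38.p14: ALDH1A3 at chr15:100879581-100879880 on the plus strand, ALDH1A1 at chr9:72953004-72953303 on the minus strand, and the first of 3 DHRS3 windows at chr1:12618161-12618460 on the minus strand. They were searched on both strands for the RAR half-sites, namely the consensus AGGTCA, its variant AGTTCA, its variant GGGTCA and its variant GGTTCA, which would stand in capitals, and none of the 3 sequences holds any.
ALDH1A3 promoter: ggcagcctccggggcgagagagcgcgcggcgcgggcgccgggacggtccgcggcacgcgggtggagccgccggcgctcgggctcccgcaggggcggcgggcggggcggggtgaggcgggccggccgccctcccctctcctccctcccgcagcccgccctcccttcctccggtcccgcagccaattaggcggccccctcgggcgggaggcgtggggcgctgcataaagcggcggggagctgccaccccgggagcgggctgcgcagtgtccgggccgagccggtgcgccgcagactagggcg
ALDH1A1 promoter: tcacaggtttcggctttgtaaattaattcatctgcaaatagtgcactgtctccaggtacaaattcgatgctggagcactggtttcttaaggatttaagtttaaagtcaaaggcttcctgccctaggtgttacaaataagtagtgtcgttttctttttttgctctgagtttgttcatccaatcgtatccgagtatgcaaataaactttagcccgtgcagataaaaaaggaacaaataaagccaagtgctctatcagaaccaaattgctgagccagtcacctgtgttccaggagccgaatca
DHRS3 promoter: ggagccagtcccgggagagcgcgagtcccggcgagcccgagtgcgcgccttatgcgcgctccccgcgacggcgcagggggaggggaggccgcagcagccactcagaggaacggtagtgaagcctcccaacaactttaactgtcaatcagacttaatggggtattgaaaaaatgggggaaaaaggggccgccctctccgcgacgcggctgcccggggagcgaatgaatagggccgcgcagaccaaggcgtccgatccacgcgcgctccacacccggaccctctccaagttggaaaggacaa
The windows differ in base composition: the ALDH1A3 window is 81.7% G or C with 46 CpG, the DHRS3 window 64.7% with 31 CpG, and the ALDH1A1 window 40.3% with 7 CpG. The other 2 DHRS3 windows hold 1 half-site each. A single half-site stands in 38.6% of the 35116 windows of the table, so its presence or absence singles out no gene. A direct repeat of half-sites spaced by 5 bases is the classical RAR-RXR element and stands in 0.0883% of windows. Among the 17 member windows it was found in 1, a RARB window at chr3:25428013-25428312 on the plus strand, shown here from base -83 relative to the start, with the paired half-sites in capitals.
RARB element: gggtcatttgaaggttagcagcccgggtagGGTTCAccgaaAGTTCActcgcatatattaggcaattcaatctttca
These are matches of letters in a short window and say nothing on binding in these cells, which was not measured.

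DHRS3, the retinal reductase, was the member with the largest differences outside ALDH1A3, and it went in opposite directions in the lymphoid lines and MOLM-13. In SEM its probe set 202481_at read 5.51 and 5.56 with DMSO. The EPZ004777 arrays read 7.13, 6.75 and 7.04. The MI-2-2 arrays read 8.54 and 8.59, and the combination arrays 10.24 and 10.46. As for ALDH1A3 in MOLM-13, no groups overlapped, but here each step was upward, and DHRS3 moved from percentile 49.0 to 49.5 of the DMSO arrays to 89.3 to 90.5 of the combination arrays. The differences were 1.44 ± 0.12 with EPZ004777, 3.03 ± 0.13 for MI-2-2 and 4.81 ± 0.13 for both compounds, the last a 28.1-fold higher signal. With the actin 3' minus 5' signal in the model, which differs between these SEM groups, DHRS3 was 1.62 ± 0.11, 4.41 ± 0.50 and 6.15 ± 0.48 above DMSO. The last 2 are thus less precisely estimated than without it. The myeloid and the stroma and epithelium marker means of SEM given above were higher on the same arrays.

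In RS4;11, DHRS3 read 4.84 and 4.32 with DMSO and 4.51, 4.94 and 4.80 with MI-2-2, which overlap. It read 5.85, 6.11 and 6.06 with EPZ004777 and 7.02, 7.09 and 7.00 with the combination, both clear of DMSO and of each other. The differences were 1.43 ± 0.15 with EPZ004777, 0.17 ± 0.15 for MI-2-2 and 2.46 ± 0.15 for both compounds. The DMSO arrays of RS4;11 were below the filter for DHRS3, at percentile 30.3 to 39.0, so the gene was kept there through its treated arrays.

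In REH, where DHRS3 was already bright, the DMSO arrays read 10.36, 10.11 and 9.49, the EPZ004777 arrays 10.13, 10.15 and 10.24, the MI-2-2 arrays 10.69, 10.20 and 10.49, and the combination arrays 10.93, 11.06 and 10.92. Only the combination arrays were clear of DMSO, by 0.99 ± 0.19. The DMSO spread in REH was wide, and without REH DMSO replicates 1 and 3 the combination difference was 0.86 against the only DMSO array left. With the actin signal in the model the DHRS3 difference in REH was 0.67 ± 0.21.

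In MOLM-13, by contrast, DHRS3 read 10.76, 10.75 and 10.81 with DMSO, 10.02, 9.72 and 10.01 with EPZ004777, 9.29, 9.43 and 8.91 with MI-2-2, and 9.46, 9.46 and 9.28 with the combination. All 9 treated arrays were below all DMSO arrays, and the MI-2-2 and combination groups overlapped each other. The differences were -0.86 ± 0.12, -1.56 ± 0.12 and -1.37 ± 0.12 for EPZ004777, MI-2-2 and the combination, so the combination did not exceed MI-2-2 here. The mouse DHRS3 ortholog read 7.26, 8.49 and 8.51 with DMSO, 9.09, 9.43 and 7.96 with EPZ004777, 7.46, 7.50 and 7.75 with MI-2-2, and 11.20, 10.82 and 10.84 with the combination. Either compound alone overlapped DMSO, with 0.74 ± 0.39 and -0.52 ± 0.39, and the combination was 2.87 ± 0.39 higher. Without mouse combination replicates 2 and 3, the arrays with the highest actin signal, the DHRS3 difference was 3.12 for the only combination array left.

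**Figure D2:**
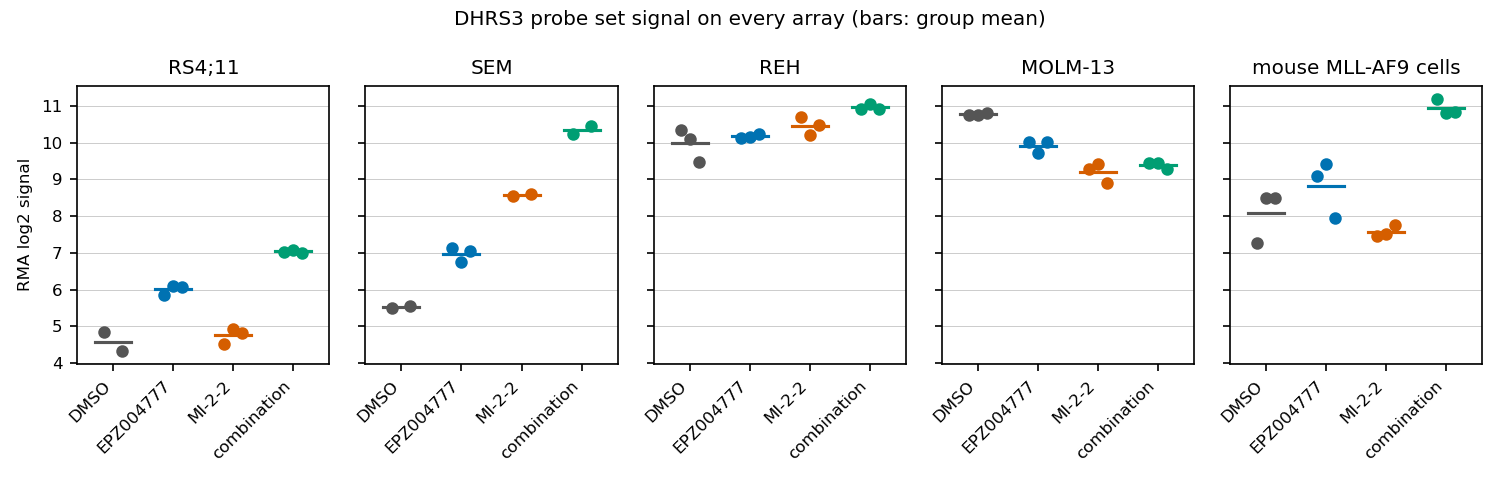
RMA log2 signal of the DHRS3 probe set (202481_at on human, 1448390_a_at on mouse arrays) on every array, by cell model and treatment, with a bar at the group mean. Combination arrays lie above DMSO in RS4;11, SEM, REH and the mouse cells and below DMSO in MOLM-13, where they read 9.28 to 9.46 against 10.75 to 10.81.

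ALDH1A1, a cytosolic retinal dehydrogenase that is also used as a marker of immature cells, was above the filter only in RS4;11 and SEM. In SEM its probe set 212224_at read 6.91 and 6.82 with DMSO, 7.48, 7.68 and 7.56 with EPZ004777, 7.97 and 8.05 with MI-2-2, and 7.63 and 7.68 with the combination. All treated ALDH1A1 arrays were above DMSO, by 0.71 ± 0.08, 1.15 ± 0.09 and 0.79 ± 0.09, and the combination overlapped EPZ004777. With the actin signal in the model, MI-2-2 and the combination were 0.87 and 0.53 above DMSO with standard errors of 0.47 and 0.46. In RS4;11, ALDH1A1 read 4.85 on both DMSO arrays and 5.02, 4.88 and 4.86 with MI-2-2. It read 6.18, 6.00 and 6.25 with EPZ004777 and 5.97, 6.14 and 6.37 with the combination, which overlap each other and lie clear of DMSO. The differences were 1.29 ± 0.11, 0.07 ± 0.11 and 1.31 ± 0.11 for EPZ004777, MI-2-2 and the combination. The RS4;11 DMSO arrays lay at percentile 39.1 to 39.3, so ALDH1A1 passed the filter there through its treated arrays. In MOLM-13, REH and the mouse cells it was below the filter, at percentile 6.44 to 10.6, 29.5 to 39.5 and 5.32 to 11.8. ALDH1A2, the retinal dehydrogenase of embryonic tissues, was below the filter in every model, at percentile 2.83 to 37.8 on the human arrays and 27.4 to 31.6 on the mouse arrays.

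**Figure D3:**
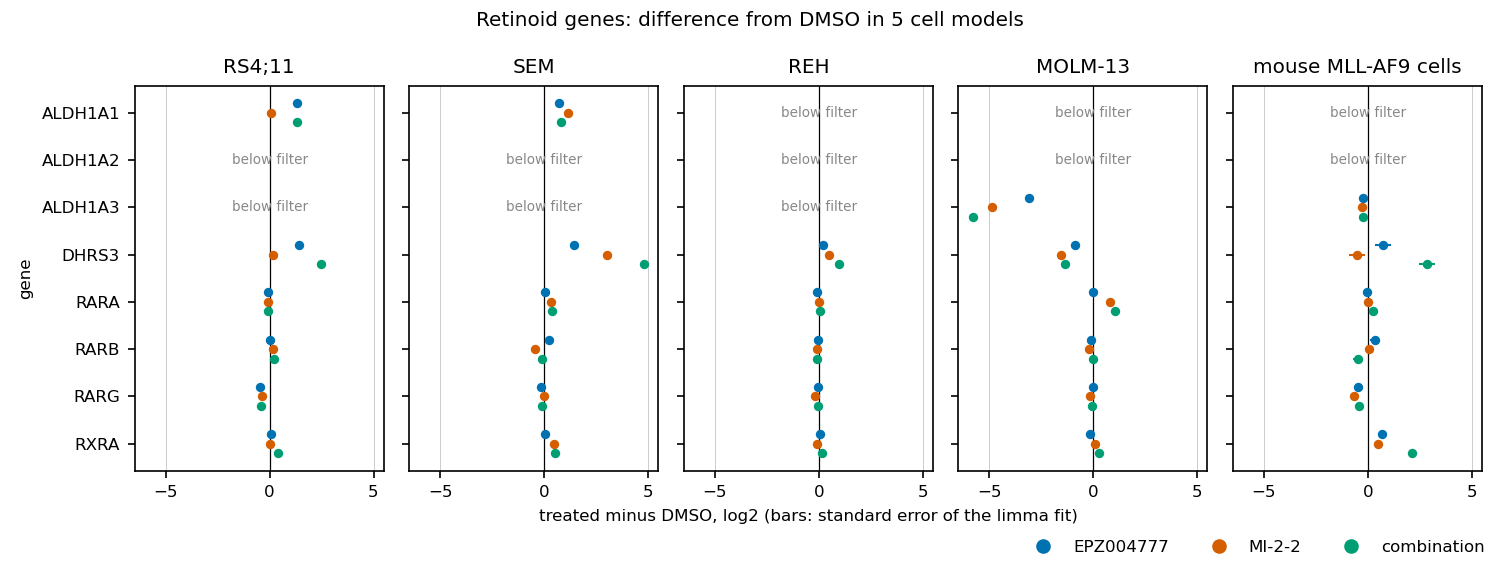
Treated minus DMSO on the log2 scale for the 8 genes in 5 cell models, with 1 point per treatment and bars for the standard error of the limma fit, and genes below the filter marked as such. ALDH1A3 in MOLM-13 (-3.11 to -5.81) and DHRS3 in SEM (1.44 to 4.81) lie farthest from 0, and most receptor points lie within 0.5 of it.

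Among the receptors, RARA was higher in MOLM-13 with MI-2-2 and the combination. Its probe set 203749_s_at read 8.17, 7.89 and 8.20 with DMSO, 7.87, 8.20 and 8.14 with EPZ004777, 8.69, 8.70 and 9.23 with MI-2-2, and 9.11, 9.08 and 9.17 with the combination. EPZ004777 overlapped DMSO and the other 2 groups were clear of it. The RARA differences were -0.01 ± 0.15, 0.79 ± 0.15 and 1.03 ± 0.15. The RARA probe sets 203750_s_at, 211605_s_at and 216300_x_at also had all MI-2-2 and combination arrays above DMSO, by 0.36 to 0.64 and by 0.45 to 0.96, and the dim 1565358_at had overlapping groups with the combination. Probe sets whose names end in _s_at or _x_at may also bind transcripts of other genes, which holds for the brightest human probe sets of RARA, RARB and RXRA. In RS4;11 the RARA differences were -0.10, -0.10 and -0.09 (± 0.07), in REH -0.09, -0.00 and 0.06 (± 0.11), and in SEM 0.04 ± 0.12, 0.32 ± 0.13 and 0.39 ± 0.13. The mouse RARA ortholog read 7.26 to 7.45 with DMSO and 7.57 to 7.68 with the combination.

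RXRA, the dimer partner of the RARs, differed most in the mouse cells. Its probe set 1454773_at read 7.03, 7.39 and 7.49 with DMSO, 7.98, 8.05 and 7.88 with EPZ004777, 7.70, 7.80 and 7.82 with MI-2-2, and 9.49, 9.43 and 9.45 with the combination. All treated groups were clear of DMSO, by 0.67 ± 0.12, 0.47 ± 0.12 and 2.15 ± 0.12. The other mouse RXRA probe sets did not share this pattern: 1425762_a_at read 5.44 to 5.59 with DMSO and 5.19 to 5.89 with the combination, and 1430497_at read 4.53 to 4.83 and 4.70 to 4.92. The mean of the 3 probe sets gave 0.23, 0.20 and 0.77. In the human lines the brighter RXRA probe set, 202449_s_at, was higher with the combination by 0.39 ± 0.10 in RS4;11, 0.52 ± 0.16 in SEM and 0.27 ± 0.06 in MOLM-13. The dimmer 202426_s_at went the other way in SEM (-0.28 ± 0.14) and MOLM-13 (-0.23 ± 0.12), so these small RXRA differences depend on the probe set.

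RARB, itself a known target of retinoic acid, and RARG stayed close to DMSO in most human comparisons. RARB differences on its brightest probe set, 208530_s_at, ran from -0.44 ± 0.17 (SEM, MI-2-2) to 0.23 ± 0.11 (RS4;11, combination). A dimmer RARB probe set, 205080_at, had all SEM treated arrays below DMSO, at 5.99 to 6.02, 5.90 to 6.03 and 5.52 to 5.80 against 6.49 to 6.53. In SEM 208530_s_at differed by 0.21, -0.44 and -0.11 with EPZ004777, MI-2-2 and the combination. The direction thus differed between these probe sets only with EPZ004777. The mean of the RARB probe sets in SEM gave -0.11, -0.27 and -0.30. RARG differed in RS4;11, where 204189_at read 5.60 and 5.88 with DMSO and 5.05 to 5.51 on the 9 treated arrays, by -0.44, -0.36 and -0.44 (± 0.14). The mean of the 3 RARG probe sets was under the filter in RS4;11, so this difference is given for 204189_at only. The mouse RARG ortholog read 7.13 to 7.52 with DMSO, 6.72 to 7.00 with EPZ004777, 6.56 to 6.75 with MI-2-2 and 6.80 to 7.05 with the combination, all treated groups below DMSO on probe set 1419415_a_at. The dimmer 1419416_a_at read 5.30 to 5.56 with DMSO, 5.31 to 5.39 with EPZ004777, 5.40 to 5.49 with MI-2-2 and 4.85 to 5.28 with the combination, so that only its combination arrays lay below DMSO, and the mean of both probe sets gave -0.32 with MI-2-2 against -0.65. Without mouse combination replicates 2 and 3, the RARG difference on 1419415_a_at was -0.25 for the only combination array left, against -0.40 with them. Mouse RARB groups with MI-2-2 overlapped DMSO, and its differences were 0.33, 0.06 and -0.49 (± 0.22).

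Counted over all members, the number past an adjusted p under 0.05 in limma is given here beside the share of all genes that passed in the same comparison. Since these contrasts were in view when the members were chosen, nothing is read from the counts. In RS4;11, 2 of 6 measured members passed with EPZ004777 (6.63% of all genes), ALDH1A1 and DHRS3, both kept there only through their treated arrays, 0 of 6 with MI-2-2 (12.6%; 1 member at an unadjusted p under 0.05) and 4 of 6, again with those 2, with the combination (23.5%). In SEM, 2 of 6 passed with EPZ004777 (8.78%), 2 under MI-2-2 (17.8%) and 3 under the combination (29.6%). In REH, 0 of 5 passed with EPZ004777 (4.11%) and 0 with MI-2-2 (1.34%), with 0 and 1 at an unadjusted p under 0.05, and 1 passed with the combination (7.49%). In MOLM-13, 2 of 6 passed with EPZ004777 (27.7%), 3 under MI-2-2 (18.5%) and 4 under the combination (48.9%). In the mouse cells, 1 of 6 passed with EPZ004777 (5.6%), 2 under MI-2-2 (5.26%) and 4 under the combination (64.7%).

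The rest of the pathway was read through a list of 59 other genes: carriers and storage enzymes, retinol and retinal oxidoreductases, retinoic acid degradation, coregulators and other receptors, and genes known to be induced by retinoic acid. These were tested in limma with adjustment over all genes. The list was also drawn up with earlier results of these data known, so its p-values and counts are no independent test. In MOLM-13, 36 list genes were measured: 6 rose and 7 fell with EPZ004777, 6 rose and 4 fell with MI-2-2, and 13 rose and 8 fell with the combination. These are 36.1, 27.8 and 58.3% of the measured list, beside 27.7, 18.5 and 48.9% of all genes. The median difference was 0.05, 0.02 and 0.07, beside 0.03, 0.02 and 0.00 over all genes. With the combination, of 8 carriers and storage enzymes 3 rose, of 7 oxidoreductases 2 rose and 3 fell, of 2 degrading enzymes 1 rose, of 9 coregulators and receptors 5 rose and 2 fell, and of 10 genes known to be induced by retinoic acid 2 rose and 3 fell. Leaving out any array of MOLM-13 kept its counts between 11 and 16, 7 and 12, and 19 and 22.

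Of the MOLM-13 genes that act beside ALDH1A3, DHRS9 (219799_s_at), a dehydrogenase of the retinol step, read 10.47 to 10.97 with DMSO and 11.91 to 12.03 with the combination. It rose by 0.70 ± 0.13 with EPZ004777 (adjusted p 0.003), 0.52 ± 0.13 with MI-2-2 (0.021) and 1.24 ± 0.13 with the combination (1.9e-05). RDH10, the main retinol dehydrogenase of the first step, fell by 0.25 with EPZ004777 and by 0.47 with the combination (adjusted p 0.0021 and 7.8e-06). CYP2S1, a cytochrome that degrades retinoic acid, rose in all 3, by 0.64, 0.34 and 0.68 (± 0.09). BCO2, which cleaves carotenoids, rose by 0.38 with MI-2-2 and 1.01 with the combination, and CRABP2, which carries retinoic acid to the nucleus, by 0.52 and 0.34. RDH11 fell by 0.22 with the combination, and its -0.15 with MI-2-2 lost its call in 16 of 18 alternatives. Calls with MI-2-2 were lost in 2 alternatives each for DHRS9 and BCO2 and in 3 for CYP2S1, and with the combination in 4 for CRABP2 and in 2 for RDH11.

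Genes known to be induced by retinoic acid split in MOLM-13. TGM2, a transglutaminase, read 6.93 to 7.38 with DMSO and at most 6.55 on treated arrays. It fell by 1.27, 1.22 and 0.82 (± 0.21; adjusted p 0.0012, 0.0024 and 0.0068). With the mean of its probe sets the TGM2 differences were -0.37, -0.39 and -0.29, and with the actin signal in the model the combination difference was -0.68 and not past the threshold. PLAAT4, a phospholipase and acyltransferase, read 9.24 to 9.61 with DMSO and 7.79 to 8.33 on treated arrays, and fell by 1.24, 1.27 and 1.53 (± 0.11). CD38, a cell surface NAD hydrolase, fell by 0.27, 0.77 and 0.87 (± 0.06). PRAM1, a myeloid adaptor protein, went the other way, from 8.35 to 8.72 with DMSO to 10.75 to 10.79 with the combination. It rose by 1.48, 0.96 and 2.25 (± 0.11), and CEBPE, a transcription factor of granulocytes, by 1.11 with EPZ004777 and 1.38 with the combination. PRAM1 and CEBPE are also myeloid genes and rose on the arrays where the myeloid marker mean was higher. Among coregulators LCOR fell by 0.20 with EPZ004777 and rose by 0.26 and 0.29 with MI-2-2 and the combination, losing these calls in 7, 2 and 1 of 18 alternatives, and ICAM1, an adhesion receptor of the induced genes, fell by 0.93 with EPZ004777.

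In SEM, 30 list genes were measured: 4 rose and 3 fell with EPZ004777, 5 rose and 1 fell with MI-2-2, and 5 rose and 2 fell with the combination. These are 23.3, 20.0 and 23.3% of the list beside 8.78, 17.8 and 29.6% of all genes, with medians of 0.03, 0.09 and 0.12 beside -0.05, 0.01 and -0.02 over all genes. With the combination, of 7 oxidoreductases 3 rose and 1 fell, of 9 coregulators and receptors 1 rose, and of 6 induced genes 1 rose and 1 fell. DHRS9, on another probe set (224009_x_at), read 3.92 and 3.87 with DMSO, 5.64 and 6.13 with MI-2-2, and 7.75 and 7.70 with the combination, with differences of 1.99 ± 0.16 and 3.83 ± 0.16. Its DMSO arrays lay at percentile 22.7 to 23.3 and its EPZ004777 arrays at 30.5 to 34.8, all under the filter. DHRS9 was thus kept through the other 2 groups, and these differences are measured from background. Its calls, although counted above, are not read as tests, and the 0.59 ± 0.14 with EPZ004777 is not read. RDH10 rose by 0.67, 0.73 and 1.02 (± 0.07 to 0.08), from 8.03 and 8.08 with DMSO, and the mean of its probe sets gave 0.32, 0.33 and 0.52. CD38 rose by 0.74 and 0.96 with MI-2-2 and the combination, while its 0.64 with EPZ004777 lost its call in 9 of 15 alternatives, and PPARD, a nuclear receptor that can bind retinoic acid, by 0.75 and 0.94 with MI-2-2 and the combination. RAI14 fell by 0.48 and 0.39 with MI-2-2 and the combination, PLAAT4 fell by 0.44 with EPZ004777 and rose by 0.53 with MI-2-2, PRAM1 fell by 0.55 with EPZ004777, and RDH13 fell by 0.57 with the combination. Of these, CD38 with MI-2-2 and PLAAT4 with EPZ004777 lost their calls in 6 of 15 alternatives, RAI14 in 5 with either treatment, PRAM1 with EPZ004777 in 3 and RDH13 in 2, among them the mean of probe sets, which gave -0.17. Lost calls were not counted for PLAAT4 with MI-2-2. The EPZ004777 arrays of PRAM1 were all under the filter, at percentile 33.2 to 35.9, so its difference ends at background. With the actin signal in the model, which parts these SEM groups, 1, 0 and 0 list genes were called (9, 7 and 5 at an unadjusted p under 0.05), and the DHRS9 differences were 0.59 ± 0.19, 1.97 ± 0.87 and 3.81 ± 0.84, none of them past the threshold (adjusted p 0.19, 0.77 and 0.24 in limma). The EPZ004777 count was 1 without SEM DMSO replicate 2 or 3, 3 without EPZ004777 replicate 2 or 3, and 4 without combination replicate 1 or 3.

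In RS4;11, 34 list genes were measured: 3 rose with EPZ004777, 5 rose and 4 fell with MI-2-2, and 8 rose and 3 fell with the combination. These are 8.82, 26.5 and 32.4% of the list beside 6.63, 12.6 and 23.5% of all genes, with medians of -0.01, -0.01 and 0.04 beside -0.04, -0.02 and -0.04 over all genes. With the combination, of 7 carriers and storage enzymes 1 rose, of 8 oxidoreductases 2 rose, of 10 coregulators and receptors 3 rose and 2 fell, and of 8 induced genes 2 rose and 1 fell. ALDH8A1, a dehydrogenase of 9-cis retinal, read 4.87 and 4.96 with DMSO and 5.71 to 5.88 with EPZ004777, and rose by 0.87 ± 0.12 (adjusted p 0.0015) and, with the combination, by 0.40 (0.035). Its DMSO arrays lay at percentile 39.6 and 41.0, 1 of the 2 under the filter, so these differences are measured from near background. BCO2 rose with all treatments, by 0.51, 0.66 and 0.58 (± 0.09). RDH10 rose by 0.65 and 0.69 (0.29 and 0.35 with the mean of its probe sets) and CD38 by 0.62 and 0.80 with MI-2-2 and the combination. EP300, a histone acetyltransferase and coactivator, rose by 0.28 and 0.31 and the corepressor NRIP1 fell, with differences of -0.48 and -0.55, with the same treatments. PRAME, a repressor of RAR signalling, fell by 0.48 with the combination, and RAI14 rose by 0.32 with EPZ004777. These calls were lost in 5 of 17 alternatives for EP300 with MI-2-2 and for ALDH8A1 with the combination, and in at most 2 for the others. Several list genes passed only narrowly. PPARD differed by 0.47 with MI-2-2 and 0.44 with the combination and lost its calls in 12 and 10 of 17 alternatives, with 0.19 and 0.13 for the mean of its probe sets. PRAME with MI-2-2 (-0.38) lost its call in 10, RAI14 with MI-2-2 (-0.21) in 11, and ICAM1 with the combination (-0.55) in 9. The EPZ004777 count was 1 without RS4;11 DMSO replicate 3. The MI-2-2 count was 3 or 4 without DMSO replicate 2 or 3, 5 without EPZ004777 replicate 2, and 4 without MI-2-2 replicate 1 or 3. The combination count was 7 or 5 without DMSO replicate 2 or 3, and 7 without combination replicate 1.

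In REH, which has no KMT2A fusion, 34 list genes were measured: 2 rose and 1 fell with EPZ004777, 1 rose and 1 fell with MI-2-2, and 3 rose and 2 fell with the combination. These are 8.82, 5.88 and 14.7% of the list beside 4.11, 1.34 and 7.49% of all genes, with medians of -0.05, -0.01 and -0.02. With the combination FABP5, which carries retinoic acid to PPARD, rose by 0.49 ± 0.10 and PRAME by 0.79, and with EPZ004777 CD38 fell by 0.41. These calls were lost in 1, 3 and 4 of 19 alternatives. The PRAME DMSO arrays, at 7.59, 6.93 and 7.92, were spread widely. Without DMSO replicates 1 and 3 its combination difference was 1.33 against the only DMSO array left. The other named calls of REH were lost in most alternatives: FABP5 with EPZ004777 (0.40) in 15 and with MI-2-2 (0.50) in 12, PRAME with EPZ004777 (0.75) in 12, PRAM1 with MI-2-2 (-0.45) in 11, and, with the combination, PLAAT4 (0.49) in 14, BCO2 (-0.47) in 12 and RDH5 (-0.56) in 16. Without DMSO replicates 1 and 3, again against a single DMSO array, PLAAT4 was 0.24 and RDH5 -0.16. The REH counts moved with single arrays. Over the 12 fits that leave out 1 REH array each, including DMSO replicate 2 (5, 6 and 10), they ran from 0 to 5, 0 to 6 and 0 to 10 called genes. Every one of these omissions moved the count by more than 1.5 times, except that of DMSO replicate 3 in all comparisons and of EPZ004777 replicate 3 in the MI-2-2 comparison.

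In the mouse cells, 38 list genes were measured: 6 rose and 1 fell with EPZ004777, 4 rose and 1 fell with MI-2-2, and 16 rose and 10 fell with the combination, where the median over all genes was -0.10. These are 18.4, 13.2 and 68.4% of the list beside 5.6, 5.26 and 64.7% of all genes. The medians of the list were 0.09, 0.08 and 0.07. With the combination, of 9 carriers and storage enzymes 2 rose and 3 fell, of 10 oxidoreductases 2 rose and 4 fell, both degrading enzymes rose, of 10 coregulators and receptors 8 rose and 1 fell, and of 7 induced genes 2 rose and 2 fell. RBP4, the blood carrier of retinol, read 10.09 to 10.58 with DMSO, 8.81 to 8.91 with EPZ004777, 7.49 to 7.67 with MI-2-2 and 3.90 to 5.04 with the combination. No groups overlapped, and RBP4 fell, with differences of -1.48, -2.73 and -5.85 (± 0.24; adjusted p 0.0033, 7e-05 and 9.2e-09). Its combination arrays were under the filter, at percentile 18.3 to 34.8, so the last difference ends at background. Its receptor STRA6, which takes up retinol, fell with the combination by 3.74 ± 0.20 (8.1e-08), from 8.78 to 9.26 with DMSO to 4.86 to 5.58, with 1 of the 3 combination arrays under the filter. RDH12, a retinal reductase, read 7.27 to 7.87 with DMSO and 12.23 to 12.60 with the combination, and rose by 1.64, 1.30 and 4.86 (± 0.18). CYP26A1, the main enzyme that degrades retinoic acid and one of its known targets, read 4.36 to 4.60 with DMSO and 6.68, 7.98 and 8.47 with the combination. Its difference was 3.27 ± 0.37 with the combination, after 0.51 and 0.23 with the single compounds, which did not pass. All CYP26A1 arrays outside the combination group were under the filter, so it was kept through that group. Its call with the combination, although counted above, is not read as a test.

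TGM2 rose in the mouse cells by 1.67, 1.57 and 3.00 (± 0.26; adjusted p 0.003, 0.0049 and 2.7e-06), from 10.11 to 10.64 with DMSO to 12.92 to 13.56 with the combination. PRAM1 rose by 1.10, 1.52 and 4.87 (± 0.24), to 13.68 to 14.27, and BCO2 by 1.18, 1.48 and 0.91 (± 0.26). With EPZ004777, BCO2 lost its call in 4 and PRAM1 in 3 of 18 alternatives. NRIP1 rose by 0.79 with EPZ004777 and 0.77 with the combination. Without mouse combination replicates 2 and 3 a single combination array is left. RBP4 was then -5.29, STRA6 -3.54, RDH12 4.63, PRAM1 4.50, TGM2 2.63, NRIP1 0.50 and BCO2 0.56 with the combination. The MI-2-2 count was 8 without combination replicate 1, and the EPZ004777 count was 4 without EPZ004777 replicate 2.

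**Figure D4:**
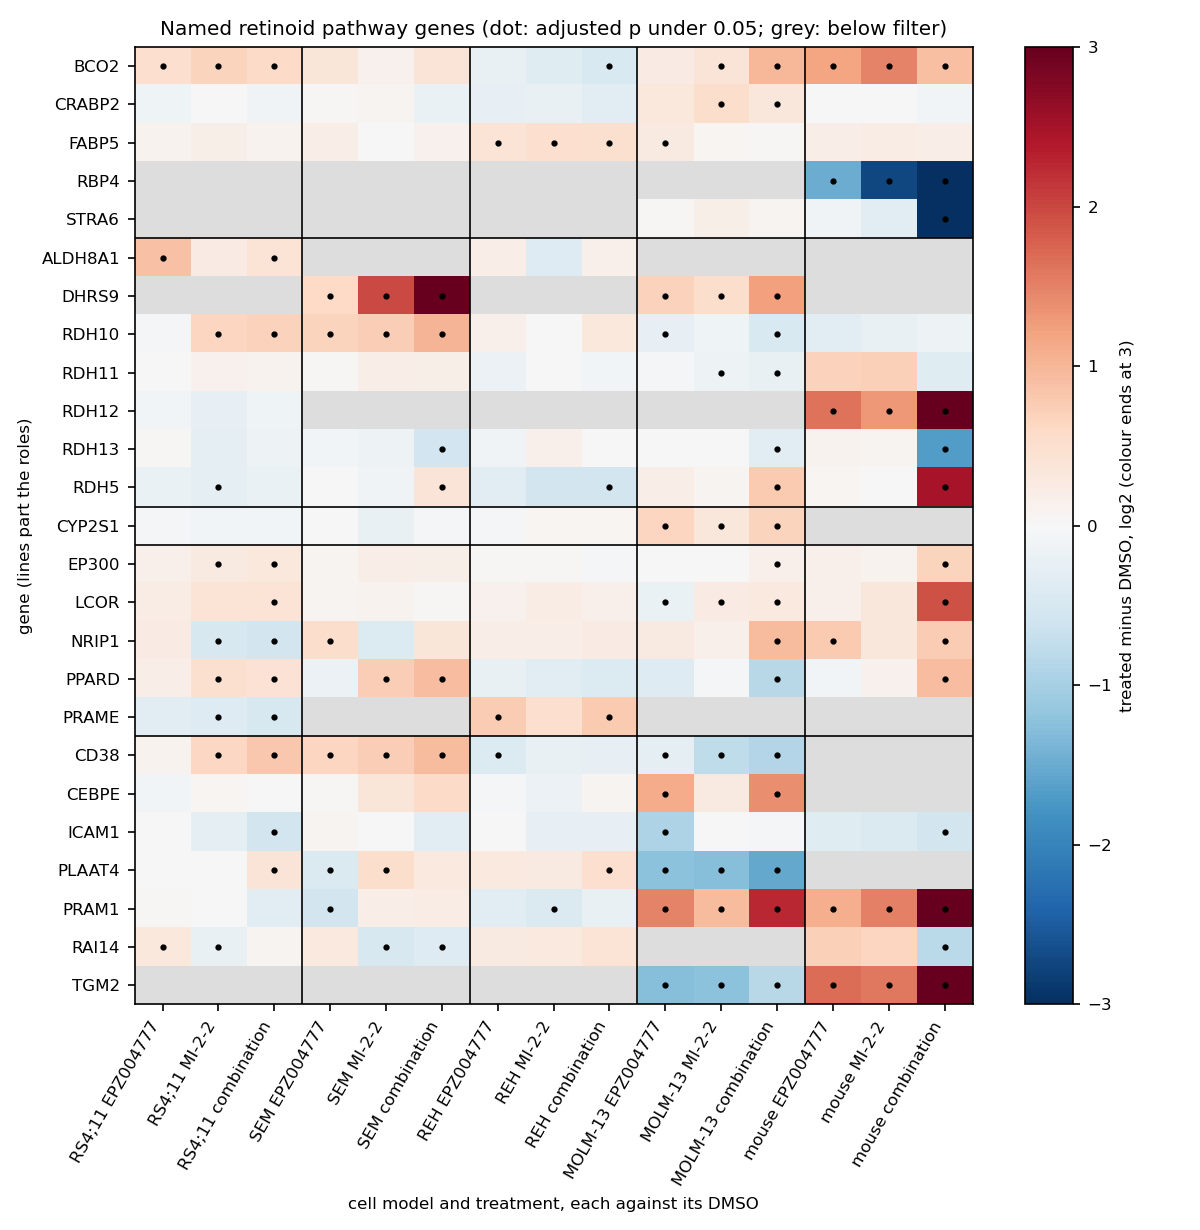
Treated minus DMSO on the log2 scale for the named genes of the 59-gene retinoid list, with genes in rows, the 15 comparisons in columns, a dot where the adjusted p in limma was under 0.05, and grey where the gene was below the filter. RBP4 falls and RDH12, PRAM1 and TGM2 rise in the mouse cells, DHRS9 rises in SEM and MOLM-13, and TGM2 and PLAAT4 fall in MOLM-13.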

How the data were processed

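Affymetrix arrays (44 human, 12 mouse) measured total RNA of 56 samples. Each deposited value is the log2 signal of a probe set. Per the submitters' processing notes it came from RMA (affy, R 3.0.2), and it was used as given. The scale of the values differs between MOLM-13 and the other human arrays. Probe sets were named by the platform annotation (human symbols updated by Entrez identifier), and only those with exactly 1 symbol were used (41097 human, 34958 mouse). Per gene and cell model, the probe set with the highest mean was kept if it lay above percentile 40 on at least 2 arrays. Separate fits per cell model in limma 3.58.1 (R 4.3.3; lmFit, eBayes) set each treatment against DMSO, and p-values were adjusted by Benjamini-Hochberg over all genes kept. With at most 3 arrays per group, p-values measure only the spread between these arrays.

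The members and gene lists were chosen with earlier results of these data known. Named genes were the 8 members, and list genes called in the same direction in at least 2 treatments of a model or among the 2 largest rises or falls of a comparison. Genes named outside this rule (ICAM1 in MOLM-13, CYP26A1 in the mouse cells, RAI14 in RS4;11) were picked after their values were seen. PLAAT4 in SEM met the rule with EPZ004777, and its value with MI-2-2 is given outside it. Likeness to ALDH1A3 was Pearson's r. Marker lists were read for B-precursor, myeloid, T cell, erythroid and megakaryocyte, and stroma and epithelium genes. Promoter windows came from a RefSeq table (GRCh38.p14); mouse windows and proteins were not used here. The limma step was checked on simulated data. Alternatives were the mean of probe sets, no filter, a replicate block, a second quantile normalization, a fit of all 44 human arrays, the actin 3' minus 5' signal as a covariate, leaving out each array, and leaving out REH DMSO replicates 1 and 3 or mouse combination replicates 2 and 3. Either of these last fits leaves a single array in that group. Same-numbered arrays did not deviate together (r of deviations from -0.48 to 0.25, with no model in which every pair exceeded 0.1 for 3 pairs), so replicate numbers were not taken as pairs.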

Additional observations from a re-analysis of the deposited data

Results flagged for a closer look

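Genes whose treated arrays all lay above DMSO in one cell model and all below it in another under the same treatment are listed here for the pairs of models given the same doses for the same time (RS4;11, SEM and REH among themselves, and MOLM-13 with the mouse cells), by the difference between the models' log2 changes. The differences themselves were not tested. DHRS3 with the combination was -4.24 in MOLM-13 minus the mouse cells. RXRA with EPZ004777 was -0.81 for the same pair. Its MOLM-13 difference was -0.15 ± 0.06, and the mouse one was 0.67 on 1454773_at but 0.23 with the mean of the mouse probe sets. For TGM2 the value in MOLM-13 minus the mouse cells was -2.94 (EPZ004777), -2.79 (MI-2-2) and -3.83 (both compounds). RARA was -0.43 with MI-2-2 and -0.48 with the combination in RS4;11 minus SEM, and it was read on different probe sets in these lines. PRAME was -1.08, -0.88 and -1.27 in RS4;11 minus REH for EPZ004777, MI-2-2 and the combination, where the REH DMSO arrays were widely spread. BCO2 with the combination was 1.05 in RS4;11 minus REH, and CD38 with EPZ004777 was 1.05 in SEM minus REH.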

How the results depend on the processing

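The ALDH1A3 values are a description. In MOLM-13, over the fits without 1 array each, they ran from -3.25 to -2.99 with EPZ004777, -5.01 to -4.75 with MI-2-2 and -5.95 to -5.67 with the combination. Mouse ALDH1A3 with the combination was -0.42 without combination replicates 2 and 3, where a single combination array is left, against -0.21 with them. Of the 15 counts of called list genes, those of MOLM-13 and of the mouse combination stayed within 1.5 times under all alternatives (single arrays left out: 11 to 16, 7 to 12, 19 to 22, and 22 to 30). The others moved as follows, in the order EPZ004777, MI-2-2 and combination where 3 numbers are given. With the actin signal as a covariate, the SEM counts were 1, 0 and 0 and the REH counts 1, 1 and 2. When the 44 human arrays were fitted together, MI-2-2 and the combination gave 5 and 7 in RS4;11 and 6 and 11 in REH. Without the filter RS4;11 with MI-2-2 had 5 and REH with the combination 2. With the replicate number as a block, which pairs no samples here, REH had 1, 0 and 2 (9, 12 and 14 at an unadjusted p under 0.05 in limma), SEM 4 and 3 with the single compounds, and RS4;11 5 with MI-2-2. Fits without REH DMSO replicates 1 and 3 or mouse combination replicates 2 and 3 leave a single array in a group. They are given no counts. Over fits without 1 array each the counts ran from 0 to 5, 0 to 6 and 0 to 10 in REH, 1 to 4, 3 to 8 and 5 to 13 in RS4;11, 1 to 7 with EPZ004777 in SEM, and 4 to 10 with EPZ004777 and 5 to 8 with MI-2-2 in the mouse cells. The counts over all genes moved as well, so these moves are not particular to the list. With the actin covariate, 8 all-gene counts moved by more than 1.5 times, beside 6 list counts. In fits without 1 array each, 46 all-gene counts did, beside 49 list counts. Of the member differences called, DHRS3 and ALDH1A1 with MI-2-2 and ALDH1A1 with the combination in SEM, and DHRS3 with the combination in REH, were no longer past the threshold with the actin covariate. RXRA with the combination lost its call with the mean of probe sets in RS4;11, SEM and MOLM-13, and also under 2, 10 and 1 other alternatives there. In the mouse cells the RXRA calls with EPZ004777 and MI-2-2 were lost under 1 and 13 alternatives, that of RARA under 6, and those of RARG with MI-2-2 and the combination under 3 and 4; RARG in RS4;11 with the combination lost its call under 7. The cause of these moves was not tested. The 2 or 3 arrays per group limit all counts. Signals near array background limit, among others, ALDH1A3 with the combination and ALDH1A1, ALDH8A1 and DHRS3 in RS4;11 DMSO cells.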

Other observations

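The human genes whose signal went most closely with ALDH1A3 over the 44 arrays, after each line's mean was subtracted, were IFI44 (Pearson r 0.93), SGIP1 (0.93), IFITM1 (0.92), PTGIS (0.91) and IFIT1 (0.91), among 5450 genes with a range of at least 1 log2. IFI44, IFITM1 and IFIT1 are known to be induced by interferon, and PTGIS makes prostacyclin. The genes that went most against it were ANKRD22 (-0.95), ORM1 (-0.93), which encodes an acute phase protein, and LOXHD1 (-0.92). These values are a description: within the MOLM-13 arrays r was 0.96 to 0.98 for the first 5 genes, and in the other lines, where ALDH1A3 was near background, -0.18 to 0.27. The MOLM-13 arrays share treatment groups, so genes that differ between them correlate. In the mouse cells ALDH1A3 spanned only 0.61 log2, and the closest genes, CBWD1 (0.81) and TMEM79 (-0.84), are not read as a pattern.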
